A study of Mus musculus with 6 samples.

Results

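Splenic CD4+Lrig1+ T cells contained transcripts of *Noxa1*, *Gna14*, *C2cd4b*, *Gm2663*, *Cep112*, *Stfa3*, *Chadl*, *Dnah7a*, *Slc7a10* and *Edn3*, and CD4+Lrig1- T cells held almost none of them. These 10 genes, of 45777 genes in the tables, were chosen by their counts in the CD4+Lrig1- libraries, which were close to 0, so their difference between the groups is the criterion of choice and is given here as a description. Where tests over all genes are reported, their calls on the 10 genes restate that choice and support nothing. The count of every transcript of a gene was summed to give the count of the gene, and the 10 genes have 32 of the 129299 transcripts listed.

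Bulk RNA sequencing was used to compare the transcriptomes of the Lrig1-expressing and Lrig1-negative parts of the CD4+ T cells of the mouse spleen. The cells came from female C57BL/6 mice, an inbred laboratory strain, at 7 weeks of age, and were separated by flow cytometry on surface Lrig1; no treatment or altered allele is named for either group. GEO's labels name 3 samples for each group, and the values used are from 4 libraries, held in 2 tables with 1 CD4+Lrig1+ and 1 CD4+Lrig1- library each, called set 1 and set 2. The labels do not say whether the samples of a group came from separate animals, so the spread between libraries may be technical, and in bulk samples a smaller number of cells that make a transcript cannot be told apart from less of it in each cell.

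Lrig1 is a transmembrane protein with leucine-rich repeats that is known to restrain signalling by receptors of the EGFR family, and Foxp3 is the transcription factor that defines regulatory T (Treg) cells, which suppress other T cells. The 10 genes are of mixed kind, and whether any of them share a pathway was not tested. They encode a peptide ligand (*Edn3*), a G protein subunit (*Gna14*), an activator of an oxidase (*Noxa1*), an amino acid transporter (*Slc7a10*), a relative of the trypsinogens (*Gm2663*), an inhibitor of cysteine proteases (*Stfa3*), a motor protein of cilia (*Dnah7a*), a centrosomal protein (*Cep112*), a matrix protein (*Chadl*) and a nuclear protein with a C2 domain (*C2cd4b*). Most of them are better known from other tissues than from T cells, such as ciliated epithelium for *Dnah7a*, cartilage for *Chadl*, brain and fat for *Slc7a10*, and the enteric nervous system and melanocytes, whose precursors need *Edn3*.

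The libraries held 48384980 and 44865070 estimated counts in set 1 (CD4+Lrig1+ and CD4+Lrig1-) and 59402441 and 59977951 in set 2. *Lrig1* itself had 11508 counts against 3609 in set 1 and 7387 against 1981 in set 2, and *Foxp3* had 30616 against 2343 and 35344 against 1656. Both transcripts, including that of the protein used for the sort, were thus detected in the CD4+Lrig1- libraries, at a lower level. The 8 T cell markers examined were at a summed 4062 and 3725 CPM (counts relative to the normalized size of each library) in set 1 and at 6159 and 5804 CPM in set 2. The 8 Treg markers summed to 2659 against 256 CPM in set 1 and to 2377 against 193 CPM in set 2, and none of them was at 0 in a CD4+Lrig1- library.

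All 10 genes were at 0 counts in the CD4+Lrig1- library of set 1, and 7 of them were at 0 in that of set 2 as well. The exceptions in set 2 were *Dnah7a* and *Slc7a10* with 6 counts each and *Edn3* with 3 counts. Summed over the 10 genes, the CD4+Lrig1+ libraries held 2460 and 3401 counts and the CD4+Lrig1- libraries held 0 and 15. A count of 0 does not show that a transcript is absent: it allows up to 3 counts, which is 0.0627 CPM in the CD4+Lrig1- library of set 1 and 0.0555 CPM in that of set 2. Folds against a library at 0 are given as lower bounds at this floor of 3 counts per library, and floors and intervals cover counting error only.

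**Figure D1:**
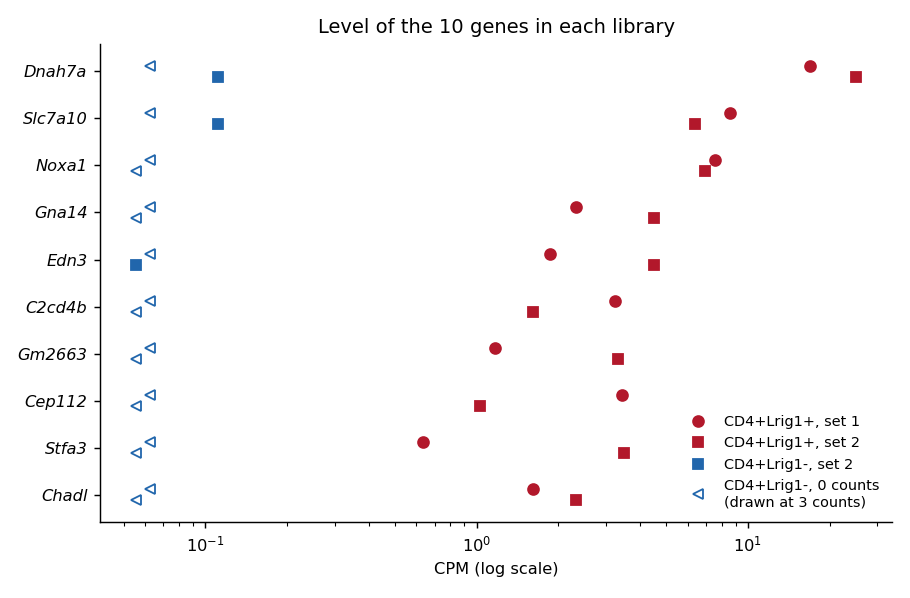
CPM of the 10 genes on a log axis in the 2 CD4+Lrig1+ libraries (red) and the 2 CD4+Lrig1- libraries (blue), with circles for set 1 and squares for set 2. Open triangles are CD4+Lrig1- libraries with 0 counts, drawn at the floor of 3 counts; every red point lies above every blue one, the lowest red point being *Stfa3* in set 1 at 0.635 CPM.

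The signalling genes *Edn3* and *Gna14* are described first. *Edn3* (gene ID 13616, chr2:174760619-174784042, plus strand, GRCm38) encodes endothelin 3, a secreted peptide that acts mainly through the receptor Ednrb. It had 97 and 258 counts in the CD4+Lrig1+ libraries of set 1 and set 2 and 0 and 3 counts in the CD4+Lrig1- libraries. Its level was thus 1.87 and 4.49 CPM in CD4+Lrig1+ cells, at least 29.8-fold higher than in CD4+Lrig1- cells in set 1 and 80.9-fold higher in set 2, with a 95% exact interval of 27.4 to 395. Its only listed transcript, NM_007903, carried all counts.

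*Gna14* (gene ID 14675, chr19:16435667-16610818, plus strand) encodes an alpha subunit of the Gq class, which couples receptors to phospholipase C beta and calcium release. The gene had 121 counts in CD4+Lrig1+ cells of set 1 and 258 in set 2, and 0 in both CD4+Lrig1- libraries. In CPM these were 2.33 and 4.49, at least 37.1-fold and at least 80.9-fold higher than in CD4+Lrig1- cells. All counts were on NM_008137.

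*Noxa1* (gene ID 241275, chr2:25085667-25095205, minus strand) encodes NADPH oxidase activator 1, which activates the superoxide-producing oxidase Nox1. It had 392 and 400 counts in the CD4+Lrig1+ libraries and 0 in both CD4+Lrig1- libraries. At 7.54 and 6.96 CPM its level was the most even of the 10 between the CD4+Lrig1+ libraries, and it was at least 120-fold and at least 125-fold higher than in CD4+Lrig1- cells. Both of its transcripts were used: NM_172204 held 246 and 194 counts, or 62.8% and 48.5% of the gene, and NM_001163626 held 146 and 206.

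*Slc7a10* (gene ID 53896, chr7:35186095-35201116, plus strand) encodes Asc-1, which carries small neutral amino acids such as glycine and serine across the membrane and pairs with the heavy chain Slc3a2. It had 445 and 367 counts in CD4+Lrig1+ cells and 0 and 6 counts in CD4+Lrig1- cells. Its level of 8.56 and 6.39 CPM was at least 137-fold higher than in CD4+Lrig1- cells in set 1 and 57.5-fold higher in set 2 (95% exact interval 26.2 to 158). The 6 counts of the CD4+Lrig1- library were all on the predicted transcript XM_030242781, whereas NM_017394, which held 367 and 352 counts in CD4+Lrig1+ cells (82.5% and 95.9% of the gene), was at 0 in both CD4+Lrig1- libraries.

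*Gm2663* (gene ID 100040208, chr6:40995822-40999479, minus strand) is a predicted gene among the trypsinogen genes that lie within the T cell receptor beta locus of the mouse. It had 61 and 190 counts in CD4+Lrig1+ cells and 0 in both CD4+Lrig1- libraries, all on NM_001102660. In CPM these were 1.17 and 3.31, at least 18.7-fold and at least 59.6-fold higher than in CD4+Lrig1- cells. Its neighbour *1810009J06Rik*, 27.4 kb away on the opposite strand and not among the 10 genes, had the same form of values, with 37 and 84 counts in CD4+Lrig1+ cells and 0 in both CD4+Lrig1- libraries.

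These neighbours are nearly identical copies, which bears on how their counts can be read. Their coding sequences of 741 bases in GENCODE vM21 (GRCm38) differed at 4 positions, or 99.46% identity, with 450 identical bases in a row, and 83.5% of the 50-base stretches of the *Gm2663* transcripts also occurred in *1810009J06Rik*. The first 150 coding bases are shown because they hold 2 of the 4 differences, which are in capitals:
Gm2663: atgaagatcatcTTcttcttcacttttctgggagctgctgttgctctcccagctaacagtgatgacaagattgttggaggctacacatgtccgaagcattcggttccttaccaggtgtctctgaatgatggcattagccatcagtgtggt
1810009J06Rik: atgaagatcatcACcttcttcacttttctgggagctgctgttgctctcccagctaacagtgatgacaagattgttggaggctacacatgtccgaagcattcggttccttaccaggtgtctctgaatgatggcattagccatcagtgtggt
Reads could be assigned to either copy over most of this length, so the split of counts between them is uncertain, and their sum of 98 and 274 counts against 0 and 0 is the firmer value.

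*Stfa3* (gene ID 20863, chr16:36450537-36455392, minus strand) encodes stefin A3, an inhibitor of cysteine proteases inside the cell that is known from myeloid cells. It had 33 and 201 counts in CD4+Lrig1+ cells, all on NM_025288, and 0 in both CD4+Lrig1- libraries. Its level of 0.635 CPM in set 1 was the lowest of the 10 genes, and that in set 2 was 3.50 CPM, so that the lower bounds of the fold were 10.1 and 63.0. No 50-base stretch of its transcripts occurred in another gene, although its coding sequence was 84.5% identical to *Stfa1* over 291 aligned bases, with 111 gap positions left out.

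*Dnah7a* (gene ID 627872, chr1:53396995-53707301, minus strand) encodes a dynein heavy chain of the inner arm of motile cilia. It was the most abundant of the 10 genes by count, with 880 and 1442 counts in CD4+Lrig1+ cells and 0 and 6 in CD4+Lrig1- cells. Its 16.9 and 25.1 CPM were at least 270-fold higher than in CD4+Lrig1- cells in set 1 and 226-fold higher in set 2 (95% exact interval 104 to 617). Every count was on the predicted transcript XM_006496179 of 12851 bases, and the other 2 transcripts were at 0.

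*Dnah7a* also has close copies, *Dnah7b* and *Dnah7c*, with coding sequences 96.96% and 96.84% identical to it. Of its 50-base stretches, 38.6% occurred in 1 or both copies. The 150 coding bases below, bases 641 to 790 of the *Dnah7a* coding sequence and 773 to 922 of *Dnah7b*, are shown because 3 differences, in capitals, are all that separate the copies over this length:
Dnah7a: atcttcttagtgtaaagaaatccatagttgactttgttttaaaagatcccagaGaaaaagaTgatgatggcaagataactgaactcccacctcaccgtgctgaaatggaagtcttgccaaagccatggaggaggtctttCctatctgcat
Dnah7b: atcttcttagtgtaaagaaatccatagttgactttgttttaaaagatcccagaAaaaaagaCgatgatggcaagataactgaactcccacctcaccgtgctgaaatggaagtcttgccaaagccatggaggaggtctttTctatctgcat
*Dnah7b* had 17 and 22 counts in CD4+Lrig1+ cells and 0 in both CD4+Lrig1- libraries, and *Dnah7c* had 0 and 10 against 0 and 0. The counts of the copies were a small part of those of *Dnah7a*, and some of them could be reads of *Dnah7a*.

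*Cep112* (gene ID 76380, chr11:108425215-108860615, plus strand) encodes a coiled-coil protein of the centrosome and is the longest of the 10 genes, at 435401 bases. It had 179 and 59 counts in CD4+Lrig1+ cells and 0 in both CD4+Lrig1- libraries. At 3.44 and 1.03 CPM it was at least 54.9-fold and at least 18.5-fold higher than in CD4+Lrig1- cells. Of its 12 transcripts 2 had counts: XM_006534424 held 45 and 59, and XM_011249300, which starts further inside the gene, held 134 in set 1 and 0 in set 2. In these estimated counts, the difference in *Cep112* between the CD4+Lrig1+ libraries was carried by this shorter transcript. How reads that transcripts share were split between them was not tested.

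*Chadl* (gene ID 214685, chr15:81686166-81697373, minus strand) encodes a chondroadherin-like protein with leucine-rich repeats that is secreted into the matrix of cartilage. It had 84 and 133 counts in CD4+Lrig1+ cells and 0 in both CD4+Lrig1- libraries, which is 1.62 and 2.32 CPM and at least 25.8-fold and at least 41.7-fold higher. NM_001164320 held 61 and 55 counts and XM_030248458 held 23 and 17, while XR_383996, listed as a transcript of the class misc_RNA, held 0 in set 1 and 61 in set 2.

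*C2cd4b* (gene ID 75697, chr9:67716224-67760933, plus strand) encodes a nuclear protein of the C2 domain class that is known from endothelium and pancreatic islets. Its counts of 168 and 93 in CD4+Lrig1+ cells were all on NM_001081314, and both CD4+Lrig1- libraries were at 0. The level was 3.23 and 1.62 CPM, at least 51.6-fold and at least 29.2-fold higher than in CD4+Lrig1- cells.

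**Figure D2:**
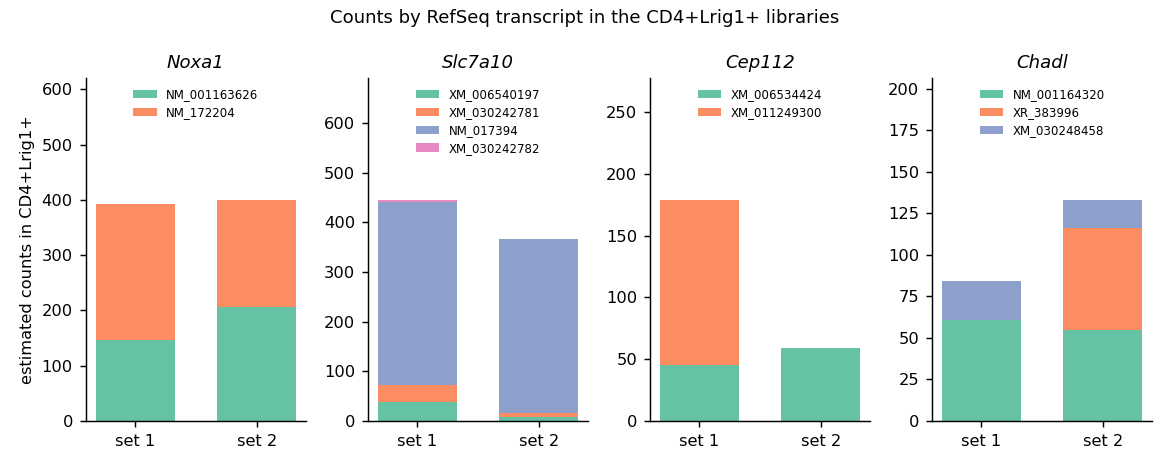
Estimated counts of each RefSeq transcript, stacked in bars from 0, for the 4 genes with more than 1 transcript above 0, in the CD4+Lrig1+ libraries of set 1 and set 2; each panel has its own scale. Both transcripts of *Noxa1* had counts in both libraries, whereas XM_030242782 of *Slc7a10*, with 5 counts, and XM_011249300 of *Cep112*, with 134, had counts in set 1 alone and XR_383996 of *Chadl* in set 2 alone.

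Opposite-strand genes overlap some of the 10, and the counting is not stated to use the strand, so reads of the partners may not be separable. *L3mbtl2* overlaps *Chadl* and shared 16.01% of its 50-base stretches; it had 2076 and 2211 counts in CD4+Lrig1+ cells against 2211 and 2394 in CD4+Lrig1- cells, and so did not have the values of *Chadl*. *Lrp3*, which overlaps *Slc7a10* and shared 12.9% of its stretches, had 27 and 11 counts in CD4+Lrig1+ cells and 0 in both CD4+Lrig1- libraries. For *C2cd4b*, 41.6% of the stretches lay in the antisense gene *M5C1000I18Rik*, with 0 and 8 counts against 0 and 0. *Gna14*, *Stfa3* and *Edn3* shared no stretch with another gene, and *Noxa1* and *Cep112* shared 0.0619% and 0.524%.

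Per length, the 10 genes lay near or below the middle of the genes expressed. Their mean FPKM (fragments scaled to the length of the transcript and to the mapped fragments of the library) in CD4+Lrig1+ cells ran from 0.680 ± 0.167 (SD, n = 2) for *Chadl* to 4.55 ± 4.37 for *Stfa3*. *Noxa1* was at 4.06 ± 0.398, *Slc7a10* at 3.58 ± 0.898 and *Gm2663* at 2.35 ± 1.52 FPKM. *Dnah7a*, first by count, was at 1.51 ± 0.352 FPKM because its transcript is long. Among the 17614 genes detected in both CD4+Lrig1+ libraries, whose median was 4.04 FPKM, the 10 genes stood at the 30.2 to 51.7 percentile. With 2 libraries and SDs of this size, the order of neighbouring genes in FPKM cannot be told from the spread.

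The CD4+Lrig1+ libraries differed from each other in these genes by up to several fold. In CPM, 6 of the 10 genes were higher in set 2. *Stfa3* was 5.52-fold higher in set 2, and 3.45% of the 13156 genes with at least 20 counts in both CD4+Lrig1+ libraries differed more than that. *Gm2663* was 2.82-fold and *Edn3* 2.41-fold higher in set 2, whereas *Cep112* was 3.35-fold higher in set 1 and *C2cd4b* was 1.995-fold higher in set 1. For *Noxa1*, the ratio of 1.08 was exceeded by 90.8% of the genes.

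**Figure D3:**
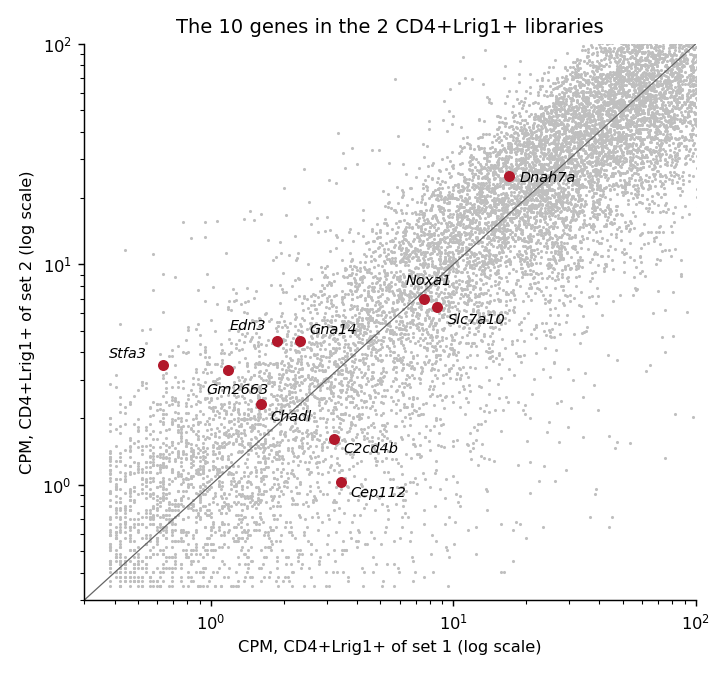
CPM in the CD4+Lrig1+ library of set 2 against that of set 1, on log axes, for the 10 genes (red) and all tested genes with at least 20 counts in both (grey); the line marks equal values. *Noxa1* and *Slc7a10* lie near the line, *Stfa3* is 5.52-fold above it and *Cep112* 3.35-fold below it.

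All 10 genes passed edgeR's filter on low counts, which left 16123 genes, and they passed it through their CD4+Lrig1+ libraries alone. In all 10, both CD4+Lrig1+ libraries were above both CD4+Lrig1- libraries, as were 14.3% of the genes tested; this separation was the criterion of choice and is not a result. The calls on the 10 genes rest on the same values and are given only to state what the fits over all genes returned. edgeR's quasi-likelihood test called 0 of the 10 genes and 0% of all genes at a Benjamini-Hochberg adjusted p under 0.05, the lowest adjusted p being 0.5012; at an unadjusted p under 0.05 it had 674 genes higher and 227 lower in CD4+Lrig1+ cells. With a term for the table that holds each library (the table block, which leaves 1 residual degree of freedom), the same tool called all 10 and 14.6% of all genes as higher and 12.8% as lower. The edgeR exact test called all 10 and 1.22% of genes as higher and 0.105% as lower, and the DESeq2 Wald test called all 10 and 1.63% as higher and 0.31% as lower. The median fitted log2 fold change of the 10 genes was 9.83, beside -0.04 over all genes tested, but where a group is at 0 this value follows from the prior count; with every CD4+Lrig1- count under 3 set to the floor, the median was 5.55 and the range 5.06 to 7.92.

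**Figure D4:**
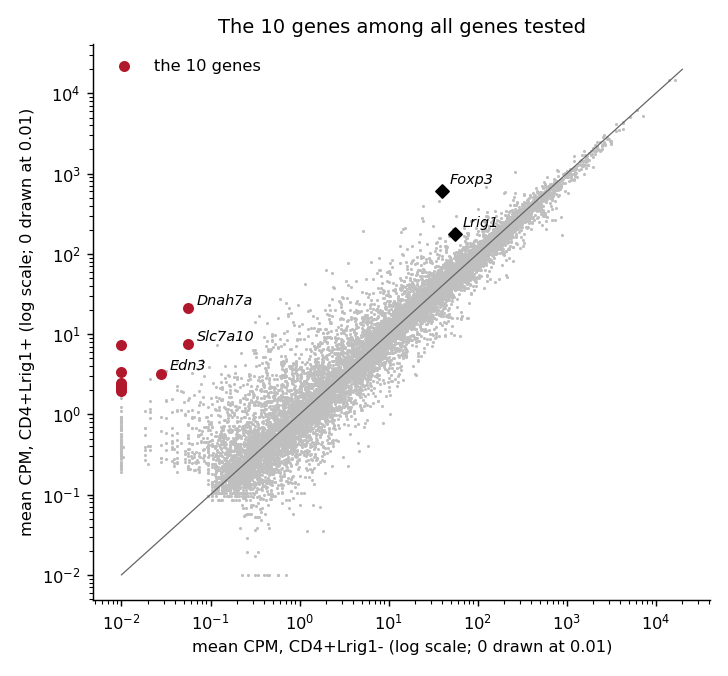
Mean CPM over the 2 CD4+Lrig1+ libraries against mean CPM over the 2 CD4+Lrig1- libraries, on log axes, for the 16123 genes tested (grey), the 10 genes (red) and *Lrig1* and *Foxp3* (black diamonds); values of 0 are drawn at 0.01 CPM. The 10 genes lie at the left edge, 7 of them at 0 in CD4+Lrig1- cells, while *Lrig1* and *Foxp3* have clear levels on both axes.

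Genes of this form were few, and nearly all were on the CD4+Lrig1+ side. Of 13156 genes with at least 20 counts in both CD4+Lrig1+ libraries, 115 (0.874%) had the pattern. In these, the CD4+Lrig1- libraries held at most 5% of the CPM of the gene summed over all 4 libraries. Of the 115 genes, 40 were at 0 in both CD4+Lrig1- libraries. In the opposite direction, 4 of 12866 genes (0.0311%) had the pattern, 3 of them at 0 in both CD4+Lrig1+ libraries. The 7 genes at 0 described here are the 7 with the most CD4+Lrig1+ counts among those 40. The next was *Rian*, an imprinted noncoding RNA, with 156 and 52 counts in CD4+Lrig1+ cells, followed by *Gm6831* with 118 and 77 and *Gm39612* with 51 and 129, against the 84 and 133 of *Chadl*, the last of the 7.

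Among genes with 1 to 6 counts in the CD4+Lrig1- libraries, *Dnah7a*, *Slc7a10* and *Edn3* were not the only ones. *Cc2d2a*, a gene of the ciliary transition zone, had 190 and 299 counts in CD4+Lrig1+ cells and 4 and 0 in CD4+Lrig1- cells. *Spp1*, which encodes the secreted protein osteopontin, had 54 and 285 against 0 and 3, and *Gm40576*, *Tmem136* and *Gucy2g* had summed counts of 369, 355 and 301 against 3, 6 and 2. The 10 genes are thus examples of the pattern and not all of it.

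How often a gene was at 0 in 1 library of a group and not in the other was counted over all genes. Of the 11211 genes with at least 100 counts in the CD4+Lrig1- library of set 1, 17 were at 0 in that of set 2, and of 11284 such genes in set 2, 16 were at 0 in set 1. Between the CD4+Lrig1+ libraries the numbers were 31 of 11577 and 2 of 11480. These are 0.0174% to 0.268% of genes. At 50 or more counts, the shares were 0.0479% to 0.691%, the highest being 88 of 12734 genes of the CD4+Lrig1+ library of set 1 that were at 0 in set 2. *Stfa3*, *Cep112*, *Gm2663*, *Chadl*, *C2cd4b* and *Edn3* each had a CD4+Lrig1+ library under 100 counts, and whether a 0 of theirs is a dropped estimate was not tested.

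The folds of the Treg genes give a scale for those of the 10 genes, which their choice made large. *Foxp3* was 12.03-fold higher in CD4+Lrig1+ cells in set 1 and 20.1-fold higher in set 2. *Lrrc32*, which encodes the TGF-β-binding surface protein GARP of Treg cells, was 30.6-fold and 83.0-fold higher, with 431 and 75 counts left in the CD4+Lrig1- libraries. None of this tests whether the 10 transcripts are made by the Foxp3-expressing cells.

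Relatives and partners of the 10 genes were examined from lists of their families, written with earlier results of these data known. Of 154 genes in the 11 lists, 147 were in the tables and 85 were tested; the quasi-likelihood test without the block called 0 of them in either direction. With the table block, 23 were higher and 14 lower in CD4+Lrig1+ cells, or 27.1% and 16.5% of those tested, beside 14.6% and 12.8% of all genes. The median log2 fold change of the 85 genes was -0.08, beside -0.04 over all genes. Among the 23 were *1810009J06Rik* and *Dnah7b*, near copies of *Gm2663* and *Dnah7a*. Both passed the filter on low counts through their CD4+Lrig1+ libraries alone, so their calls support nothing. Adjusted p values in the next paragraphs are from edgeR's quasi-likelihood test with the table block.

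The partners of *Noxa1* did not share its pattern. *Nox1*, the oxidase that Noxa1 activates, had 44 and 49 counts in CD4+Lrig1+ cells and 26 and 27 in CD4+Lrig1- cells, with a log2 fold change of 0.70 and an adjusted p of 0.307. *Noxo1*, the organizer subunit of the same complex, had 80 and 36 against 100 and 18, higher in CD4+Lrig1+ cells in set 2 alone. Of the phagocyte oxidase, the catalytic subunit *Cybb* was higher with the block (2530 and 5438 counts against 710 and 3593, adjusted p = 0.0156), as was *Ncf4* (3739 and 4396 against 1757 and 2579, adjusted p = 0.00076), while *Ncf1*, *Cyba*, *Rac1* and *Rac2* did not pass the test. *Cybb* is also a gene of macrophages. The 10 macrophage and monocyte markers summed to 47.2 against 29.5 CPM in set 1 and 263 against 182 CPM in set 2. None of them was at 0. With the block, 6 of the 10 were higher and 0 lower, beside 14.6% and 12.8% of all genes. Their part in the values of *Cybb* and *Ncf4* was not tested.

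Of the relatives of *Gna14*, *Gnaq* lies 47.1 kb away on the same strand of chromosome 19 and encodes the widely expressed alpha subunit of the same class. It was higher in CD4+Lrig1+ cells, with 1693 and 1223 counts against 420 and 322 and log2 ratios of 1.89 and 1.84 in the sets (log2 fold change 1.86, adjusted p = 3.7e-05). *Gna15*, the subunit of this class typical of blood cells, was higher by 0.83 on the log2 scale (adjusted p = 0.00252), whereas *Gna11* had a log2 fold change of -0.30 that did not pass the test (adjusted p = 0.0552). Downstream, the phospholipases *Plcb3* and *Plcb4* were higher, *Plcb4* with 1294 and 387 counts against 293 and 109 (adjusted p = 0.000136). *Plcb2* and the calcium channels *Itpr1* and *Itpr3* were lower, by 0.35 to 0.43 on the log2 scale. Unlike *Gna14*, each of these had at least 109 counts in each CD4+Lrig1- library.

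**Figure D5:**
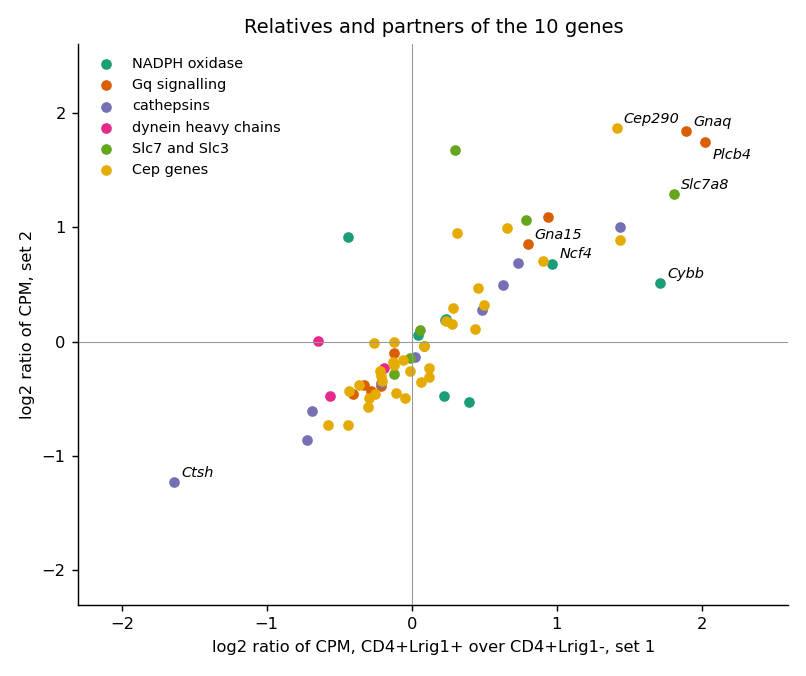
Log2 ratio of CPM, CD4+Lrig1+ over CD4+Lrig1-, in set 2 against set 1 for 69 relatives and partners of the 10 genes with at least 100 counts in 1 library, coloured by list. Only genes with counts in every library are drawn. They come from the lists of NADPH oxidase, Gq signalling, cysteine cathepsins, dynein heavy chains, Slc7 transporters and Cep genes, and the other lists are left out. *Gnaq* and *Plcb4* lie at the upper right, with log2 ratios of 1.74 to 2.02 in both sets, *Ctsh* lies at the lower left, and most Cep genes lie near 0.

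The ligand *Edn3* was present without clear levels of its receptors or of the other endothelins. *Edn1* and *Edn2* were at 0 in all 4 libraries, *Ednra* had at most 6 counts and *Ednrb* at most 3 in any library. *Ece1*, the protease that cleaves the precursors of endothelins, was higher in CD4+Lrig1+ cells with the block, at 3492 and 2462 counts against 2673 and 1656 (log2 fold change 0.37, adjusted p = 0.0192), and *Ece2* and *Kel* were at 0.

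Among the amino acid transporters, *Slc3a2*, the heavy chain that pairs with *Slc7a10*, was abundant in both groups, at 5170 and 7678 counts against 4568 and 6723 (log2 fold change 0.08, adjusted p = 0.442). *Slc7a7* and *Slc7a8* were higher with the block (adjusted p = 0.0416 and 0.0251), with 103 and 240 counts against 55 and 108, and 38 and 169 against 10 and 65. *Slc7a1*, *Slc7a5* and *Slc7a6*, the most abundant of the family, did not pass the test. *Slc7a9*, 248 kb from *Slc7a10*, and *Slc7a12*, *Slc7a13*, *Slc7a14* and *Slc7a15* were at 0 throughout.

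The trypsinogens other than the *Gm2663* pair were close to 0. *Prss1*, *Prss3*, *Try10* and *Gm10334* were at 0 in all libraries, and *Try4*, *Try5* and *Gm5771* had at most 13 counts in any library. *2210010C04Rik*, 30.8 kb to the other side of *Gm2663* and 78.7% identical to it over the coding sequence, had 8 and 19 counts in CD4+Lrig1+ cells and 0 and 8 in CD4+Lrig1- cells. *Prss2* had 19 and 56 against 3 and 18 (adjusted p = 0.0663). Trypsinogens are products of pancreatic acinar cells, and the pancreas lies beside the spleen: of 13 acinar markers *Cpa1*, *Cpb1*, *Cela3b*, *Clps* and *Pnliprp1* were at 0 in all libraries, and the list summed to 3.35 against 2.53 CPM in set 1 and 4.79 against 1.57 CPM in set 2. *Cela1* was higher with the block (106 and 236 counts against 41 and 55, adjusted p = 0.0095), and *Ctrl*, the other acinar marker tested, had 65 and 8 against 80 and 7 (adjusted p = 0.756); the part of acinar RNA in the level of *Gm2663* was not tested.

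The other stefin A genes, which lie in a cluster with *Stfa3* on chromosome 16, were absent or low. *Stfa1* and *Stfa2*, 165 kb and 42.2 kb away, were at 0 in all libraries, *Stfa2l1* had 0 and 9 counts in CD4+Lrig1+ cells and 0 and 23 in CD4+Lrig1- cells, and *Csta2* had 8 and 29 against 0 and 7. *Cstb*, the stefin of most cells, was higher with the block by 0.41 on the log2 scale (adjusted p = 0.0233). The 10 cysteine cathepsins examined went both ways. With the block, *Ctsb*, *Ctsf*, *Ctss* and *Ctsz* were higher and *Ctsc*, *Ctsh*, *Ctsl* and *Ctsw* were lower, while *Ctso* and *Ctsk* did not pass the test. The 10 neutrophil markers summed to 7.23 against 7.77 CPM in set 1 and 39.4 against 95.4 CPM in set 2, with *Ly6g* at 0 in both libraries of set 1; they were higher in set 2 than in set 1, as *Stfa3* was, but not higher in CD4+Lrig1+ cells, and their part in the level of *Stfa3* was not tested.

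No other dynein heavy chain of cilia was near the level of *Dnah7a* in CD4+Lrig1+ cells alone. *Dnah7b* was called higher with the block (adjusted p = 0.0185), within the limit given above for the copies. It passed the filter on low counts through its CD4+Lrig1+ libraries alone, so this call supports nothing. *Dnah8* was lower, at 9950 and 1437 counts against 13555 and 1884 (adjusted p = 0.00222), and *Dnah3*, *Dnah9* and *Dnah14* were at 0 in all libraries. *Foxj1*, the transcription factor of motile cilia, had 26 and 7 counts in CD4+Lrig1+ cells and 10 and 0 in CD4+Lrig1- cells (adjusted p = 0.209), and *Ccdc39*, needed for the inner dynein arms, had at most 3 counts in any library. *Ccdc40*, its partner, was higher with the block, at 99 and 78 counts against 17 and 36 (adjusted p = 0.0354), and *Rsph1*, of the radial spokes, had 23 and 43 against 10 and 7 (adjusted p = 0.0962). The 4 ciliated cell markers in the tables summed to 2.85 against 0.835 CPM in set 1 and 2.23 against 0.815 CPM in set 2, and their part in the level of *Dnah7a* was not tested.

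Of the 33 other Cep genes tested, 7 were higher and 6 lower with the block, beside 14.6% higher and 12.8% lower of all genes tested. The largest difference was that of *Cep290*, a protein of the ciliary transition zone, with 330 and 58 counts against 114 and 15 (log2 fold change 1.58, adjusted p = 0.0072), and none of the 33 was at 0 in a CD4+Lrig1- library. *C2cd4a*, *C2cd4c* and *C2cd4d* were at 0 in all 4 libraries, so *C2cd4b* was the only listed member of its family with counts. Of 17 leucine-rich matrix proteins related to *Chadl*, 2 were tested and neither passed, and *Dcn*, *Lum* and *Fmod*, abundant products of connective tissue cells, were at 0 in all libraries. The 4 stromal markers summed to 1.87 against 0.313 CPM in set 1 and 1.985 against 0.981 CPM in set 2. Of these, *Col1a2* was at 0 in both CD4+Lrig1- libraries and *Col3a1* in all libraries, and their part in the level of *Chadl* was not tested.

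Most of the genes beside the 10 that could be tested did not have the same values. Of 34 nearest or overlapping genes, 9 were tested, and with the block 2 were higher, *1810009J06Rik* and *Zfp831* (next to *Edn3*, adjusted p = 0.00903), and 1 was lower, *Stk17b* (next to *Dnah7a*, adjusted p = 0.0134). *1810009J06Rik* passed the filter on low counts through its CD4+Lrig1+ libraries alone and is a near copy of *Gm2663*, so its call supports nothing. Over all genes tested, the block called 14.6% as higher and 12.8% as lower. The neighbours that were not tested had few or no counts and could not be compared. Some of them, such as *Lrp3* and *M5C1000I18Rik*, had counts in CD4+Lrig1+ cells alone, and *Gm32311* had counts in CD4+Lrig1- cells alone. *Vps13a*, 4548 bases from *Gna14*, had 8018 and 2752 counts against 7341 and 2832 (adjusted p = 0.609), and *Rangap1*, 6875 bases from *Chadl*, had 7046 and 9944 against 6061 and 8549 (adjusted p = 0.291). Inside the *Cep112* gene, *LOC115487814* had 14 and 5 counts and *Cep112it* had 9 and 0 in CD4+Lrig1+ cells, each with 0 in both CD4+Lrig1- libraries, and *Gm36818* on the opposite strand had 40 and 0 against 9 and 0. The 10 genes lie on 9 chromosomes; *Noxa1* and *Edn3* share chromosome 2 and are far apart on it.

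Their promoters, taken from RefSeq on GRCm38.p6 as 250 bases before to 50 bases after a start, were of mixed composition. All 10 genes matched, with 12 promoters, 3 of them of *Cep112*. Their GC content ran from 36.3% for *Gm2663* to 70.7% for *Slc7a10*, around the median of 52.7% over 32851 promoters (quartiles 45.7% and 61.7%). On both strands, the forkhead motif TGTTTAC was found in 0 of the 12, beside 3.65% of all promoters, and the RUNX motif TGTGGTT in 0, beside 5.27%. The AP-1 motif TGANTCA, which reads the same on both strands, was found in those of *Gm2663* and *Stfa3*, beside 7.81% of all promoters, and the ETS motif CAGGAAG in those of *Noxa1* and *Stfa3*, beside 13.3%. These are matches of letters, the motifs do not overlap each other in these promoters, and nothing about binding was measured. For *Dnah7a* and *Cep112*, the starts used were those of transcripts at 0 counts in all libraries. The starts of XM_006496179 of *Dnah7a* and XM_011249300 of *Cep112*, which held counts, lie outside these promoters and were not searched.

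The promoters of *Gm2663* (chr6:40999430-40999729, minus strand) and *Stfa3* (chr16:36455343-36455642, minus strand) are shown because they hold the AP-1 matches, in capitals, which begin at -157 and +30 from the start; the ETS match of *Stfa3*, at -226, is also in capitals:
Gm2663: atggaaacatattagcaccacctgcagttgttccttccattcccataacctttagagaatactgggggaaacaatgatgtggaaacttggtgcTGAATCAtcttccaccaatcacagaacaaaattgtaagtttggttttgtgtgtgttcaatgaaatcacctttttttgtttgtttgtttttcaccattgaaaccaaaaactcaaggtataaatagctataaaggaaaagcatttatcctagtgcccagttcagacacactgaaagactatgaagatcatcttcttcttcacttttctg
Stfa3: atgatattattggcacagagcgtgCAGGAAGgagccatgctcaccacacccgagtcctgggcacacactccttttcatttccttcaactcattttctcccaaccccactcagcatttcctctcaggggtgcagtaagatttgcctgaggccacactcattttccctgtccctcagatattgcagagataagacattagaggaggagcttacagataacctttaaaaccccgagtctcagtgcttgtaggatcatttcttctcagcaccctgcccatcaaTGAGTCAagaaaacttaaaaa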

How the data were processed

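RNA from CD4+Lrig1+ and CD4+Lrig1- T cells was sequenced by the authors from libraries of a stranded mRNA kit; the submitters' processing notes name Trimmomatic 0.38, HISAT2 2.1.0, Bowtie2 2.3.4.1, StringTie 2.1.3b and the build GRCm38. For each transcript and library the authors deposited an estimated count from StringTie, without normalization. The FPKM values were also made by the authors with StringTie, scaled by transcript length and mapped fragments, as deposited. Another table was set aside, since its 6 value columns have names from which the group cannot be read, and those used bear no replicate numbers.

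Whole-number estimated counts were summed per gene symbol with Python 3.11.15. edgeR 4.0.16 under R 4.3.3 supplied the filter (filterByExpr), TMM scaling and quasi-likelihood test, with an adjusted p under 0.05 as the threshold; limma 3.58.1 and DESeq2 1.42.0 gave alternatives. The procedure was tested on simulated data. Members and lists were chosen with earlier results of these data known. Named were the 10 genes, their transcripts, neighbours and listed relatives, marker genes, and the genes at 0 most like them by CD4+Lrig1+ count; *Cc2d2a*, *Spp1*, *Gm40576*, *Tmem136*, *Gucy2g* and *Lrrc32* were chosen after their values were seen. Shared 50-base stretches and coding identities came from GENCODE vM21, and promoters from RefSeq. The identities are over aligned bases, with gap positions left out.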

Additional observations from a re-analysis of the deposited data

How the results depend on the processing

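The direction of the log2 fold changes of the 10 genes is fixed by their choice and shows no stability. Their size ran from 0.73 to 13.11 over 100 recomputed values. The lowest was that of *Cep112* on log2(FPKM + 1), and the highest that of *Dnah7a* with CD4+Lrig1- of set 2 left out. What sets this spread was not tested. The median of 9.83 was 5.97 with a prior count of 2, 4.02 on log2(FPKM + 0.1) and 1.36 on log2(FPKM + 1), and 9.14 to 10.19 when each library was left out in turn. With the floor of 3 counts, an alternative chosen after seeing the data, it was 5.55, or 5.45 in set 1 alone and 5.94 in set 2 alone.

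The number of genes called did not hold. Against 0 higher and 0 lower in the quasi-likelihood test, the table block gave 2358 and 2056, the DESeq2 Wald test 263 and 50, and the edgeR exact test 196 and 17. Leaving out each library gave 1 to 88 higher and 0 to 2 lower: 88 were higher when CD4+Lrig1- of set 1 was left out, 41 for CD4+Lrig1+ of set 2, 5 for CD4+Lrig1+ of set 1 and 1 for CD4+Lrig1- of set 2, each lone library being assumed to vary like the others. For the family lists the block gave 23 higher and 14 lower against 0 and 0, and for the neighbours 2 and 1 against 0 and 0; the block on the neighbours was added after seeing the data. DESeq2's size factors, no filter on low counts and limma on log2(FPKM + 1) left the calls over all genes at 0. The 115 genes with the pattern became 165 with at least 10 counts, 62 with at least 50, 57 at 2% and 243 at 10%. The 4 in the opposite direction became 17 with at least 10 counts, 0 with at least 50, 3 at 2% and 18 at 10%. What sets the size of these changes, and of those in the other values, was not tested. No paired analysis was possible because the columns carry no replicate numbers; the table block joins libraries only by the table that holds them. With 2 libraries per group and 44865070 to 59977951 counts, levels under 3 counts per library cannot be resolved.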

Other observations

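The other genes at 0 in both CD4+Lrig1- libraries that came closest to the 10 by their CD4+Lrig1+ counts were also of mixed kind. *Medag*, a gene of fat cell differentiation, had 53 and 82 counts in the CD4+Lrig1+ libraries of set 1 and set 2. *Iglon5*, a neuronal adhesion molecule, had 49 and 52, and *Lypd1*, of the Ly6 family of surface proteins, had 28 and 73. *Slc30a2*, a zinc transporter, had 38 and 63, *Atp2b2*, a calcium pump of the plasma membrane, had 77 and 20, and *Prss50*, a protease-like gene known from testis, had 20 and 74. Among the stromal markers, *Col1a2* had 25 and 56 counts in CD4+Lrig1+ cells and 0 in both CD4+Lrig1- libraries, while *Col1a1*, its partner in type I collagen, had 66 and 51 against 12 and 41, *Pdgfrb* had 6 and 7 against 3 and 12, and *Col3a1* was at 0 in all 4.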
